A study of Mus musculus with 8 samples.

Results

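BATF and IRF proteins are transcription factors of lymphocytes and myeloid cells, and 8 of their genes (Batf, Batf3, Irf1, Irf2, Irf3, Irf4, Irf5 and Irf8) were followed through 8 RNA-seq libraries of mouse natural killer (NK) cells. The genes were chosen by symbol from the 27179 genes of the count table, and all 8 passed the low-count filter that kept 13184 genes for testing. NK cells of C57BL/6 mice, either wild type or CIS-/- (lacking CIS, the SOCS-family inhibitor of cytokine signalling encoded by Cish), were purified with DX5 (anti-CD49b) magnetic beads, taken from blood, spleen and bone marrow. Each genotype was profiled ex vivo and in vitro, giving 4 groups of 2 libraries. The labels give no age, sex, culture medium, cytokine or culture time, and nothing about the CIS-/- allele. They do not say whether the 2 libraries of a group came from separate mice, and the spread behind each p-value is that between these libraries, which may be technical.

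BATF and BATF3 are small basic leucine zipper proteins without a transactivation domain of their own, which pair with JUN proteins at AP-1 sites. IRF4 and IRF8 bind DNA weakly alone and join BATF-JUN dimers at composite AP-1-IRF elements, or ETS proteins such as PU.1 at ETS-IRF elements. IRF1 is induced by interferon and activates many interferon response genes, and IRF2 binds the same elements and often opposes it. IRF3 and IRF5 lie inactive in the cytoplasm until kinases downstream of nucleic acid sensors or Toll-like receptors phosphorylate them. IRF1 and IRF2 are known for their part in NK cell development and maturation, and IRF8 for the NK cell response to cytomegalovirus.

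The 250 bases before the annotated start site are shown for the 3 most abundant members ex vivo and for Irf4, the member with the largest fold change between culture states. Sequences are from RefSeq on the plus strand of GRCm38.p6, at chr11:53769764-53770013 for Irf1, chr8:46739495-46739744 for Irf2, chr8:120736108-120736357 for Irf8 and chr13:30748983-30749232 for Irf4. Capitals mark matches to the STAT site TTCNNNGAA, the interferon response element (GAAA, any 2 bases, GAAA), the AP-1 site TGANTCA and the NF-kB site (GGG, any 3 bases, TTCC), searched on both strands.
Irf1: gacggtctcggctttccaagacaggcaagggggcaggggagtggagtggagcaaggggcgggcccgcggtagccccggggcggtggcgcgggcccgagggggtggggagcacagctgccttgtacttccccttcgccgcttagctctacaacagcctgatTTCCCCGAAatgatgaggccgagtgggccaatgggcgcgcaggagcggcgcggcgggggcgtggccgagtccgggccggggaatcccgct
Irf2: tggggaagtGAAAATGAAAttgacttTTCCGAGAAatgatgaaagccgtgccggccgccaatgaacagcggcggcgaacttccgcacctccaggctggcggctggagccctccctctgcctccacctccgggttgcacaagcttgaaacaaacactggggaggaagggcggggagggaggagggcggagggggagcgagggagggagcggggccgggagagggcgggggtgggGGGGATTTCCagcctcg
Irf8: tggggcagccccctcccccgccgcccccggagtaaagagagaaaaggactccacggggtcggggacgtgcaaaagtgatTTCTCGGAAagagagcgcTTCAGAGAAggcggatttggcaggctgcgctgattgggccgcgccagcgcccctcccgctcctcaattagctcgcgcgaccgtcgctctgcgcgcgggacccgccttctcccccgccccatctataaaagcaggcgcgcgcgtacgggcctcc
Irf4: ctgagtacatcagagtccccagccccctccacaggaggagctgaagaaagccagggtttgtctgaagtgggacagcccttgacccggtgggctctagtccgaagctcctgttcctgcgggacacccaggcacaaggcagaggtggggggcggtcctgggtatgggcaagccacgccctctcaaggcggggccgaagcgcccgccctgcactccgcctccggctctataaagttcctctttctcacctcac

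The STAT site was found once in Irf1 (TTCCCCGAA, 90 bases before the start site), once in Irf2 (TTCCGAGAA, 224 bases before) and at 2 places in Irf8 (TTCTCGGAA and TTCAGAGAA, 171 and 153 bases before). Batf3 also held one (TTCCACGAA, 239 bases before), so 4 of the 10 member windows had a match, against 8.30% of all 32851 windows of 300 bases, which run from 250 bases before to 50 after each start site. Irf1 and Irf8 have 2 windows each, and the second held none of the 4 motifs in either gene. Irf2 alone among the members matched the interferon response element as searched (GAAAATGAAA, 241 bases before), which was in 3.44% of all windows. Irf2 alone also matched the searched NF-kB letters (GGGGATTTCC, 17 bases before), which were in 5.56%. Looser forms of the 4 motifs were not searched, so GGGGAATCCC near the end of the printed Irf1 sequence was not counted. No member window held the AP-1 site, which was in 7.81% of windows, and Batf, Irf3, Irf4 and Irf5 held none of the 4 motifs. These are matches of letters in the reference sequence; binding was not measured here.

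Library totals ran from 21485710 to 28065268 counts. Values are CPM, the counts of a gene relative to the library total scaled with its TMM factor, and, for comparisons between genes only, RPKM, the CPM divided by gene length in kilobases. Cish, the targeted gene, was at 9.26 and 9.12 CPM in wild type and 1.29 and 2.64 in CIS-/- ex vivo, and at 219.8 and 201.9 in wild type and 21.2 and 17.2 in CIS-/- in vitro, as the labels have it. The 8 NK cell markers summed to between 15525 and 29831 CPM, and none was at 0 in any library. Gzma (9596 to 25875 CPM) was most of the sum in vitro and a large part of it ex vivo, and rose with culture. The other 7 fell with culture in each genotype, with a list median of -1.49 on the log2 scale in wild type and -1.70 in CIS-/- cells. Among them Itga2, which encodes the CD49b that the beads bind, was at 235.4 to 276.7 CPM ex vivo and 7.13 to 21.2 in vitro, and Tbx21 at 716.6 to 999.6 and 103.5 to 164.97. The part of this fall in the culture differences of the 8 genes was not tested. Sex-linked transcripts separated the groups: Xist was at 119.6 and 162.1 CPM in wild type and 0.322 and 0.197 in CIS-/- ex vivo, and at 0 and 0.0351 in wild type and 130.7 and 89.7 in CIS-/- in vitro. The Y-linked Eif2s3y was at 34.1 and 21.7 CPM in wild type and 84.9 and 70.4 in CIS-/- ex vivo, and at 135.2 and 122.0 in wild type and 0.0385 and 0 in CIS-/- in vitro. Both transcripts were thus present ex vivo in wild type. Genotype and sex-linked expression therefore cannot be told apart within either state, and culture and sex-linked expression cannot be told apart within either genotype.

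Ex vivo, Irf8 was the most abundant of the 8 genes per length, and Irf4 and Batf3 were the least. In wild-type cells the mean RPKM was 167.2 for Irf8, 91.2 for Irf1, 73.0 for Irf2, 30.6 for Batf, 29.9 for Irf3, 8.27 for Irf5, 0.760 for Irf4 and 0.691 for Batf3. The libraries of Batf and Irf3 overlapped, as did those of Irf4 and Batf3, and every other pair of neighbours in this order was apart in both libraries. Irf8 alone made up 41.6% of the RPKM summed over the 8 genes. The order in CIS-/- cells ex vivo was the same for the first 6 genes, from Irf8 at 194.9 to Irf5 at 8.93, with Batf3 (0.867) and Irf4 (0.736) overlapping at the bottom.

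In vitro the order was different. In wild-type cells Irf1 led with 55.4 RPKM, followed by Batf at 52.4 and Irf8 at 51.7, whose libraries overlapped, then Irf2 at 39.3, Irf3 at 25.3, Irf5 at 18.2, Irf4 at 4.12 and Batf3 at 0.220. In CIS-/- cells Irf8 led with 79.8, followed by Batf at 62.2, Irf1 at 41.3, Irf3 at 28.7 and Irf2 at 26.8, the last pair overlapping, then Irf5 at 12.1, Irf4 at 5.02 and Batf3 at 0.191. The summed RPKM of the 8 genes was 399.2 to 496.0 in the 4 ex vivo libraries and 245.3 to 267.1 in the 4 in vitro libraries.

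**Figure D1:**
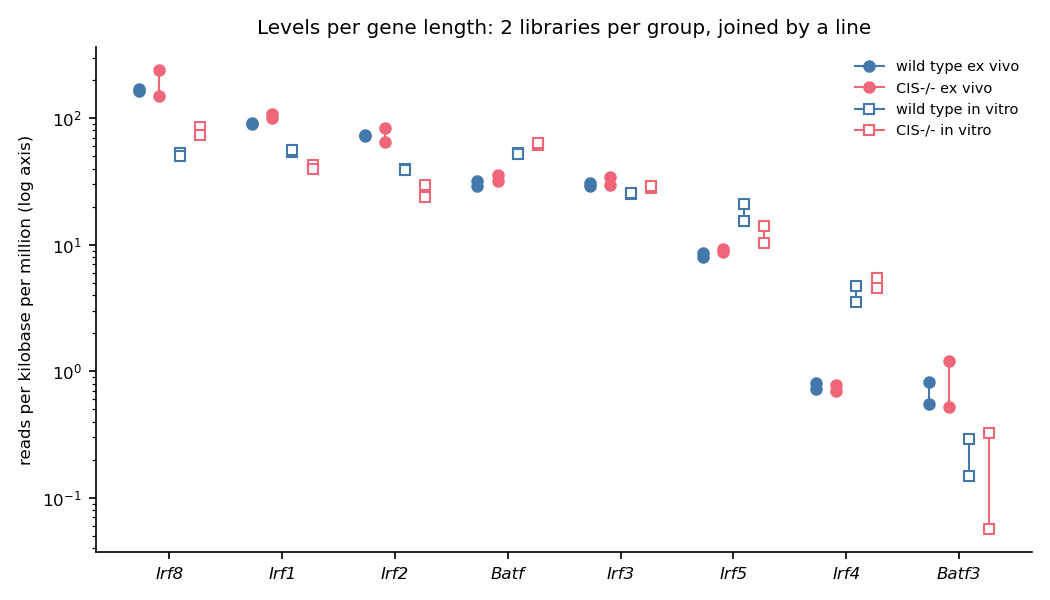
RPKM of each of the 8 genes (log axis) in every library, with the 2 libraries of a group joined by a line. Irf8 is highest in 3 groups, Irf1 in wild type in vitro, and Batf3 and Irf4 are lowest in all 4.

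The comparison of in vitro with ex vivo cells asks how the 8 genes differed between the states, in each genotype. Irf4 and Batf were higher in vitro in both genotypes, and Irf1, Irf2 and Irf8 were lower in both. In wild type 6 of the 8 passed edgeR's quasi-likelihood test at an adjusted p of 0.05 (3 higher, 3 lower), against a background of 63.7% of all tested genes called. In CIS-/- cells 6 of the 8 passed (2 higher, 4 lower), against 72.4%. The share of members called is thus close to that of all genes; the median size of their log2 fold changes was 1.02 against 0.61 for all genes in wild type, and 1.31 against 0.81 in CIS-/- cells.

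**Figure D2:**
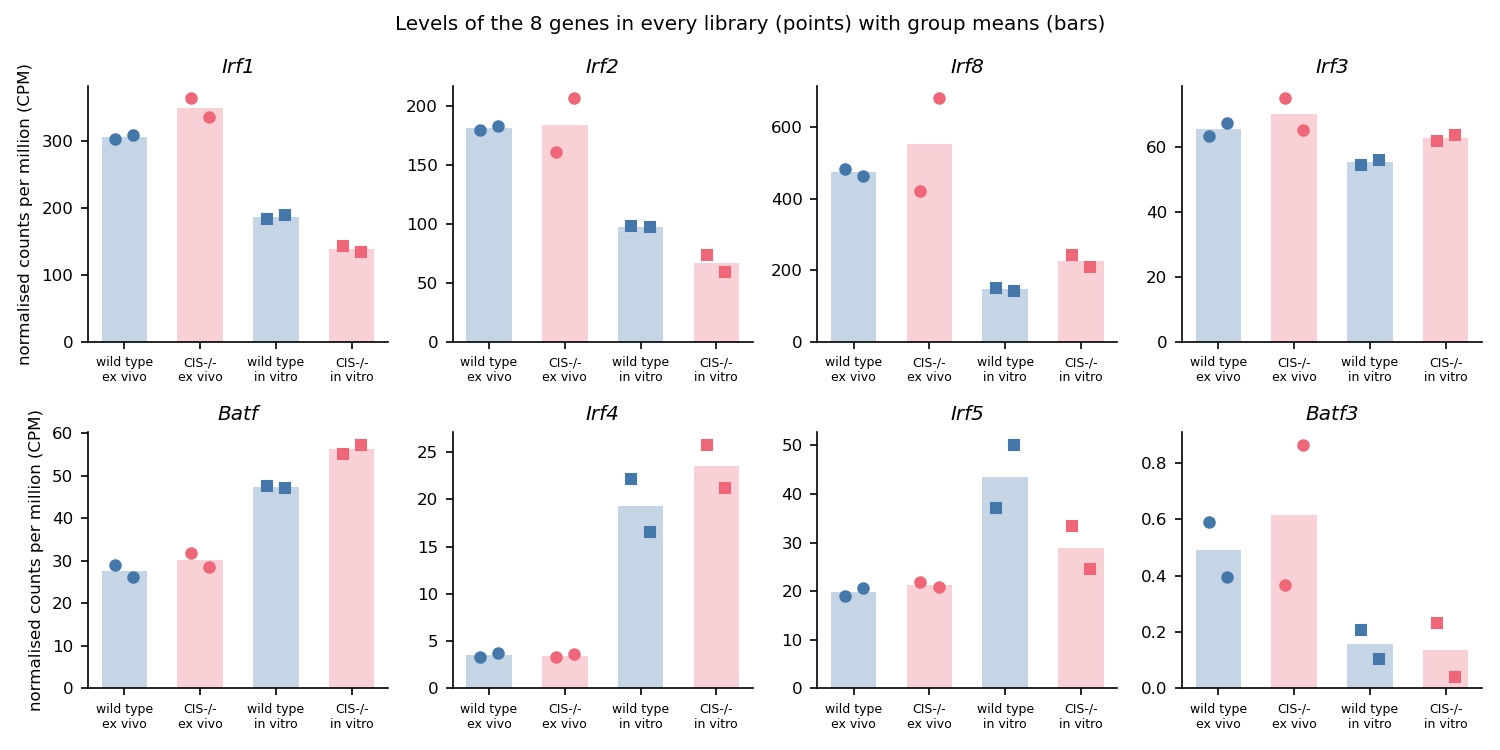
CPM of each gene in every library (points) with the group mean (bar), by group. Irf4 sits at 3.27 to 3.75 CPM in the 4 ex vivo libraries and 16.5 to 25.8 in the 4 in vitro libraries.

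Irf4, induced in lymphocytes by antigen receptor and cytokine signals, lies on chromosome 13 (30749233 to 30766981, GRCm38). It was at 3.37 and 3.75 CPM in wild type and 3.27 and 3.62 in CIS-/- ex vivo, and at 22.1 and 16.5 in wild type and 25.8 and 21.2 in CIS-/- in vitro. All 4 in vitro libraries were above all 4 ex vivo libraries, while the 2 genotypes overlapped within each state. On the log2 scale the change with culture was 2.44 (5.42-fold, edgeR adjusted p = 1.46e-05, SE 0.19) in wild type and 2.77 (6.81-fold, adjusted p = 5.54e-06, SE 0.19) in CIS-/- cells. Per length Irf4 stayed far below Irf8: the ratio of Irf8 to Irf4 in RPKM was 204.3 to 311.2 in the ex vivo libraries and 11.3 to 16.4 in the in vitro libraries.

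Batf, partner of IRF4 at composite elements, lies on chromosome 12 (85686720 to 85709087). It was at 29.1 and 26.2 CPM in wild type and 31.9 and 28.6 in CIS-/- ex vivo, and at 47.6 and 47.0 in wild type and 55.2 and 57.3 in CIS-/- in vitro. The states did not overlap, and in vitro both CIS-/- libraries were above both wild-type libraries. It rose with culture by a log2 difference of 0.78 (adjusted p = 0.000213, SE 0.10) in wild type and 0.89 (adjusted p = 6.12e-05, SE 0.10) in CIS-/- cells by edgeR.

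Batf3, the BATF relative known from cross-presenting dendritic cells, lies on chromosome 1 (191098414 to 191108943) and was close to the limit of detection. Its raw counts were 14 and 10 in wild type and 8 and 22 in CIS-/- ex vivo, and 6 and 3 in wild type and 6 and 1 in CIS-/- in vitro. No library reached 1 CPM. It fell with culture in CIS-/- cells by a log2 difference of 2.15 (edgeR adjusted p = 0.0295) and was at -1.61 in wild type (adjusted p = 0.0861). Without CIS-/- ex vivo replicate 2, the library with 22 counts, the adjusted p in CIS-/- cells was 0.231, and without CIS-/- in vitro replicate 2, the library with 1 count, it was 0.180.

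Irf1, the interferon-induced activator, lies on chromosome 11 (53770014 to 53778374) and shares 135 exonic bases with the protein-coding Gm17334 on the opposite strand. It was at 303.7 and 309.4 CPM in wild type and 364.6 and 336.6 in CIS-/- ex vivo, and at 183.1 and 189.1 in wild type and 144.1 and 133.8 in CIS-/- in vitro. The 4 groups did not overlap, and the order of the genotypes was opposite in the 2 states. It fell with culture by a log2 difference of 0.72 (edgeR adjusted p = 0.000193, SE 0.09) in wild type and 1.34 (adjusted p = 4.90e-06, SE 0.09) in CIS-/- cells.

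Irf2, which shares IRF1's sites, lies on chromosome 8 (46739745 to 46847458). It was at 179.6 and 183.1 CPM in wild type and 160.7 and 206.6 in CIS-/- ex vivo, and at 97.8 and 97.2 in wild type and 73.9 and 59.4 in CIS-/- in vitro. Ex vivo the wild-type libraries lay between the 2 CIS-/- libraries, and in vitro both CIS-/- libraries were below both wild-type libraries. It fell with culture by 0.90 on the log2 scale (edgeR adjusted p = 0.000687, SE 0.14) in wild type and by 1.46 (adjusted p = 3.23e-05, SE 0.14) in CIS-/- cells.

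Irf8, the IRF of myeloid and B cell differentiation that NK cells also use, lies on chromosome 8 (120736358 to 120756694). It was at 483.5 and 462.7 CPM in wild type and 422.1 and 680.3 in CIS-/- ex vivo, and at 150.5 and 141.9 in wild type and 241.4 and 210.3 in CIS-/- in vitro. All in vitro libraries were below all ex vivo libraries, and in vitro both CIS-/- libraries were above both wild-type libraries. It fell with culture by 1.69 on the log2 scale (3.24-fold, edgeR adjusted p = 0.000138, SE 0.20) in wild type and by 1.29 (2.44-fold, adjusted p = 0.000411, SE 0.20) in CIS-/- cells.

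The CIS-/- ex vivo libraries differed 1.61-fold from each other in Irf8 and 1.29-fold in Irf2, both higher in replicate 2. Summed B cell markers (6 genes, including Ms4a1) ran the other way, at 77.2 CPM in replicate 1 and 14.99 in replicate 2, and at 29.2 and 25.3 in wild type. In vitro the B cell markers summed to 0.174 to 0.732 CPM with 4 of 6 at 0 in every library, Ms4a1 among them. The 7 monocyte and macrophage markers summed to 567.4 and 588.8 CPM in wild type and 944.4 and 1014 in CIS-/- ex vivo, and to 54.9 and 44.3 in wild type and 123.3 and 152.7 in CIS-/- in vitro. Most of that sum was Ly6c2, which lymphocytes including NK cells also express. With culture 5 of the 7 fell and 1 rose in each genotype: Csf1r, a receptor of the macrophage lineage, was at 31.2 to 65.3 CPM ex vivo and 0.0385 CPM at most in vitro, while Cd68 was at 11.9 to 14.5 CPM ex vivo and 17.8 to 27.1 in vitro. The 6 conventional dendritic cell markers, mostly Itgax, which NK cells also express, summed to 924.1 to 1106 CPM ex vivo and 366.8 to 623.9 in vitro. Of the 3 of them that were tested, Itgax fell and Xcr1 rose with culture in each genotype. Xcr1 was at 0.126 to 1.02 CPM ex vivo and 10.05 to 17.9 in vitro. Clec9a and Cd209a were at 0 in every in vitro library, but they were near 0 ex vivo too, at most 0.157 and 0.395 CPM. The 4 plasmacytoid dendritic cell markers summed to 68.0 to 73.3 CPM ex vivo and 80.8 to 101.2 in vitro, mostly from Bst2 and Tcf4. Siglech was at 0 in every in vitro library, but at 0.0789 CPM at most ex vivo. Bst2 was higher and Ccr9 lower in every in vitro library than in any ex vivo library, and Tcf4 overlapped. The part of these cells in the levels of Irf8 and in its fall was not tested. In these bulk libraries fewer cells of a type and less RNA per cell cannot be told apart.

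Irf3, the factor activated downstream of nucleic acid sensing, lies on chromosome 7 (44997648 to 45002848) and varied least of the 8. It was at 63.5 and 67.6 CPM in wild type and 75.2 and 65.3 in CIS-/- ex vivo, and at 54.7 and 56.2 in wild type and 62.0 and 63.8 in CIS-/- in vitro. The log2 fold change with culture was -0.24 (95% interval -0.46 to -0.02, edgeR adjusted p = 0.0540) in wild type and -0.16 (-0.38 to 0.06, adjusted p = 0.167) in CIS-/- cells. The first of these lay on the border of the threshold: the adjusted p was 0.0483 with DESeq2 and 0.00795 with the wild-type libraries fitted alone. Irf3 shares 88 exonic bases with Bcl2l12 on the opposite strand, which was at 7.32 to 12.9 CPM.

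Irf5, known from Toll-like receptor signalling in macrophages and B cells, lies on chromosome 6 (29526130 to 29541869). It was at 19.0 and 20.6 CPM in wild type and 22.0 and 20.8 in CIS-/- ex vivo, and at 37.1 and 50.2 in wild type and 33.4 and 24.5 in CIS-/- in vitro. All 4 in vitro libraries were above all 4 ex vivo libraries, and the replicates in vitro differed 1.35-fold and 1.36-fold. It rose with culture in wild type by a log2 difference of 1.14 (edgeR adjusted p = 0.000706, SE 0.18) and was at 0.44 (adjusted p = 0.0541, SE 0.18) in CIS-/- cells, where without CIS-/- in vitro replicate 2 it was 0.65 with an adjusted p of 0.0183. Irf5 shares 411 exonic bases with Tnpo3 on the opposite strand, and the strand setting of the counting is not given in the sources used here. Tnpo3 stayed between 94.0 and 109.7 CPM in all 8 libraries.

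**Figure D3:**
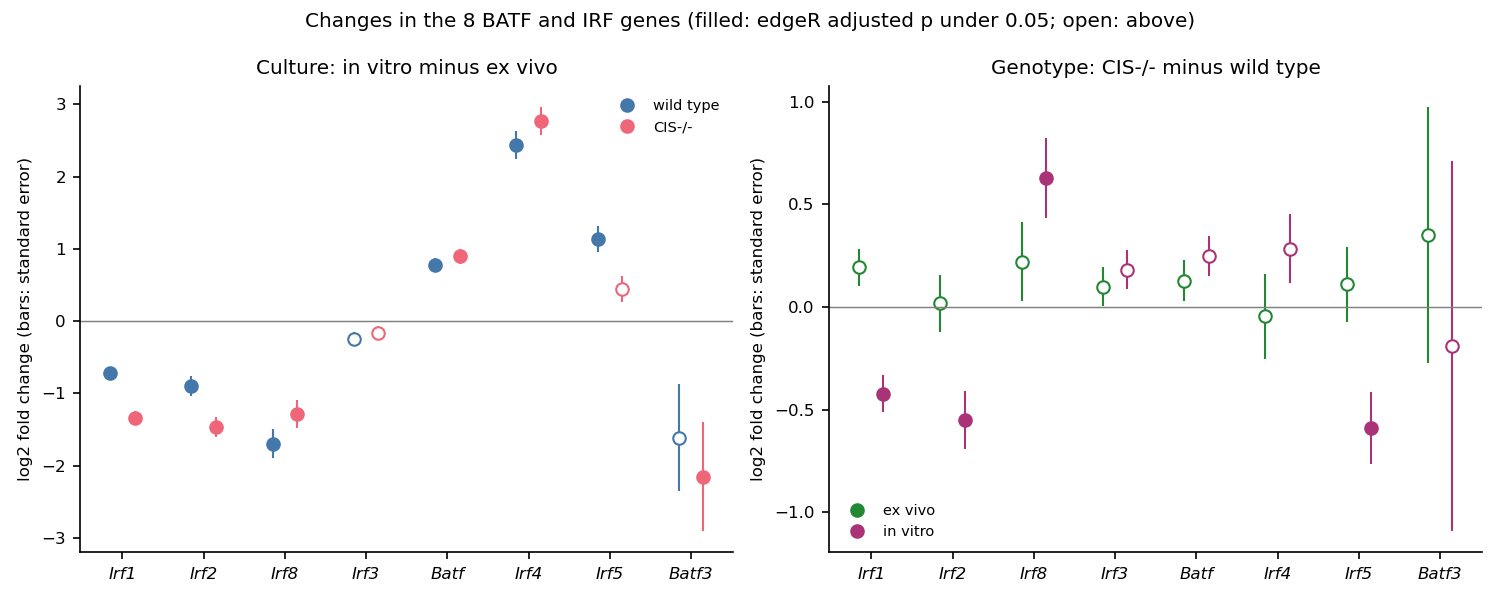
Log2 fold changes of the 8 genes with culture (left, in vitro minus ex vivo) and with genotype (right, CIS-/- minus wild type), with standard errors as bars. Filled points passed an edgeR adjusted p of 0.05: 6 genes for culture in each genotype, 4 for genotype in vitro and 0 for genotype ex vivo.

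The comparison of CIS-/- with wild-type cells asks how the 8 genes differed between the genotypes in each state. As given above, genotype and sex-linked expression cannot be told apart in it. Ex vivo none of the 8 passed edgeR's test (0 at an unadjusted p under 0.05, and 0 by DESeq2 or limma-voom), against a background of 0.0607% of all tested genes called. Irf1 was closest, with a log2 fold change of 0.19 (95% interval -0.01 to 0.40, edgeR adjusted p = 0.766). Both CIS-/- libraries were above both wild-type libraries in Irf1, but so they were in Irf5, at an unadjusted edgeR p of 0.559. The share of all genes without overlap was not counted. The other fold changes were Irf8 at 0.22 (interval -0.22 to 0.66), Batf at 0.13 (-0.10 to 0.36), Irf5 at 0.11 (-0.31 to 0.53), Irf3 at 0.10 (-0.12 to 0.32), Irf2 at 0.02 (-0.30 to 0.34), Irf4 at -0.05 (-0.52 to 0.43) and Batf3 at 0.35 (-1.08 to 1.78). The value for Irf8 rested on 1 library: without CIS-/- ex vivo replicate 2 it was -0.16.

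In vitro 4 of the 8 passed, 1 higher (Irf8) and 3 lower (Irf1, Irf2 and Irf5), against a background of 25.6% of tested genes called, 10.96% higher and 14.6% lower. With library totals in place of TMM the calls over all genes shifted from 1445 higher and 1929 lower to 744 and 2773, and the median of all genes from 0 to -0.13. The log2 fold change was 0.63 for Irf8 (1.55-fold, edgeR adjusted p = 0.0464, SE 0.20), -0.42 for Irf1 (adjusted p = 0.0135, SE 0.09), -0.55 for Irf2 (adjusted p = 0.0256, SE 0.14) and -0.59 for Irf5 (adjusted p = 0.0408, SE 0.18). In each of the 4 the genotypes did not overlap, but they did not overlap in the uncalled Batf and Irf3 either. With 2 libraries against 2 the smallest exact permutation p is 0.333, and the share of all genes without overlap was not counted. Of the 4 not called, Batf was at 0.25 (interval 0.03 to 0.47, edgeR adjusted p = 0.0901) and Irf3 at 0.18 (-0.04 to 0.40, adjusted p = 0.194). Irf4 was at 0.28 (-0.10 to 0.67, adjusted p = 0.242) and Batf3 at -0.19 (-2.25 to 1.87, adjusted p = 0.906). The median of the 8 was -0.00, against 0 for all genes.

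The 4 calls in vitro were near the threshold, and fewer of the 8 passed in several fits with 1 library left out. In the fits below with 0 or 1 call, calls over all genes fell too. The lost calls therefore do not show which libraries carried the differences. Without either wild-type ex vivo library, which is outside this comparison, Irf2 stayed at -0.55 and Irf8 at 0.63. Without wild-type in vitro replicate 2, or without CIS-/- in vitro replicate 2, 0 of the 8 passed edgeR's test. Without wild-type in vitro replicate 1, or without either wild-type ex vivo library, 1 passed, and without CIS-/- in vitro replicate 1, 3 passed. Over 20 alternative analyses, Irf1 was called in 17 (adjusted p 0.00113 to 0.0843), Irf2 in 14 (0.00473 to 0.167), Irf5 in 12 (0.0190 to 0.253) and Irf8 in 11 (0.00362 to 0.185). None of these 4 changed sign: Irf1 ran from -0.56 to -0.31, Irf2 from -0.72 to -0.40, Irf5 from -0.83 to -0.36 and Irf8 from 0.49 to 0.72.

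**Figure D4:**
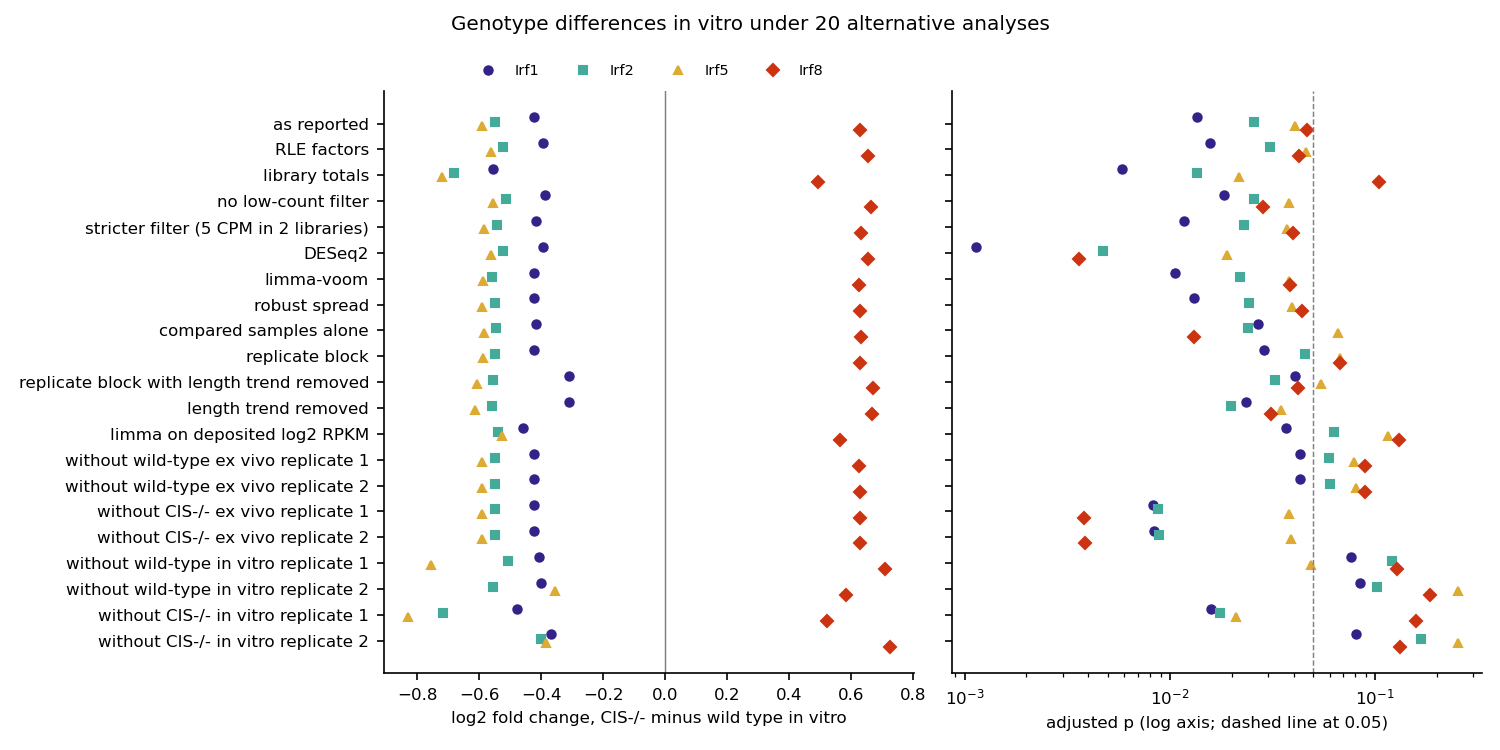
Log2 fold change between CIS-/- and wild-type cells in vitro (left) and its adjusted p (right, log axis, dashed line at 0.05) for Irf1, Irf2, Irf5 and Irf8, as reported and under the 20 alternatives. Irf1, Irf2 and Irf5 stay below 0 and Irf8 above 0 in all of them, while the adjusted p falls on both sides of the line.

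Gene length moved with the genotype difference. The Spearman correlation across the 13184 tested genes, which are not independent replicates, was -0.46 between length and log2 fold change in vitro and -0.29 ex vivo. Batf is short, at the 9.58th percentile of length, and Irf4 is long, at the 81.5th. With the length trend removed, Batf in vitro was at -0.04 instead of 0.25 and Irf4 at 0.54 with an adjusted p of 0.0311, while Irf1, Irf2, Irf5 and Irf8 kept their sign and all passed. T cell markers also moved with genotype in vitro: the 7 markers summed to 170.2 and 161.5 CPM in wild type and 834.5 and 798.2 in CIS-/- cells, mostly from Cd3d, Cd3e and Cd3g. Of the 7, 5 were higher in CIS-/- cells (those 3, Cd5 and Cd8a), Cd8b1 was at 0.0695 and 0 CPM in wild type against 0.655 and 0.441 (edgeR adjusted p = 0.0596), and Cd4, at 0.104 CPM or less in each of the 4 libraries, was at -1.91 on the log2 scale (adjusted p = 0.380). Their part in the differences of the 8 genes was not tested.

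Whether the genotype difference itself differed between the states was tested as an interaction. The genotype differences of Xist and Eif2s3y ran in opposite directions in the states, so the interaction cannot be told apart from sex-linked expression either. None of the 8 passed edgeR's test (3 at an unadjusted p under 0.05, 1 by DESeq2, 0 by limma-voom), against a background of 0.137% of genes called. Irf1 had the smallest p, with a difference of -0.62 on the log2 scale (SE 0.13, unadjusted p = 0.00106, edgeR adjusted p = 0.0929). DESeq2 gave -0.58 with an adjusted p of 0.00506, and edgeR gave -0.67 with 0.0494 without CIS-/- in vitro replicate 1. The other two at an unadjusted p under 0.05 were Irf2 at -0.57 (adjusted p = 0.187) and Irf5 at -0.70 (adjusted p = 0.197), and Irf8 was at 0.41 (interval -0.22 to 1.03, adjusted p = 0.454).

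The balance between factors that share sites was read as ratios of RPKM within each library. The ratio of Irf8 to Irf2 was 2.36 and 2.22 in wild type and 2.31 and 2.89 in CIS-/- ex vivo, and 1.35 and 1.28 in wild type and 2.87 and 3.11 in CIS-/- in vitro. Wild type in vitro was thus below the other 3 groups. The ratio of Irf8 to Irf1 had the same low group, at 0.976 and 0.891, with the other 6 libraries between 1.38 and 2.40. The ratio of Irf1 to Irf2, activator to frequent opponent, ranged from 1.20 to 1.68 with every group overlapping at least one other. The ratio of Irf5 to Irf3 was 0.267 to 0.291 in the 4 ex vivo libraries, 0.620 and 0.817 in wild type in vitro and 0.493 and 0.352 in CIS-/- in vitro. The ratios are given as a description, with no test.

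**Figure D5:**
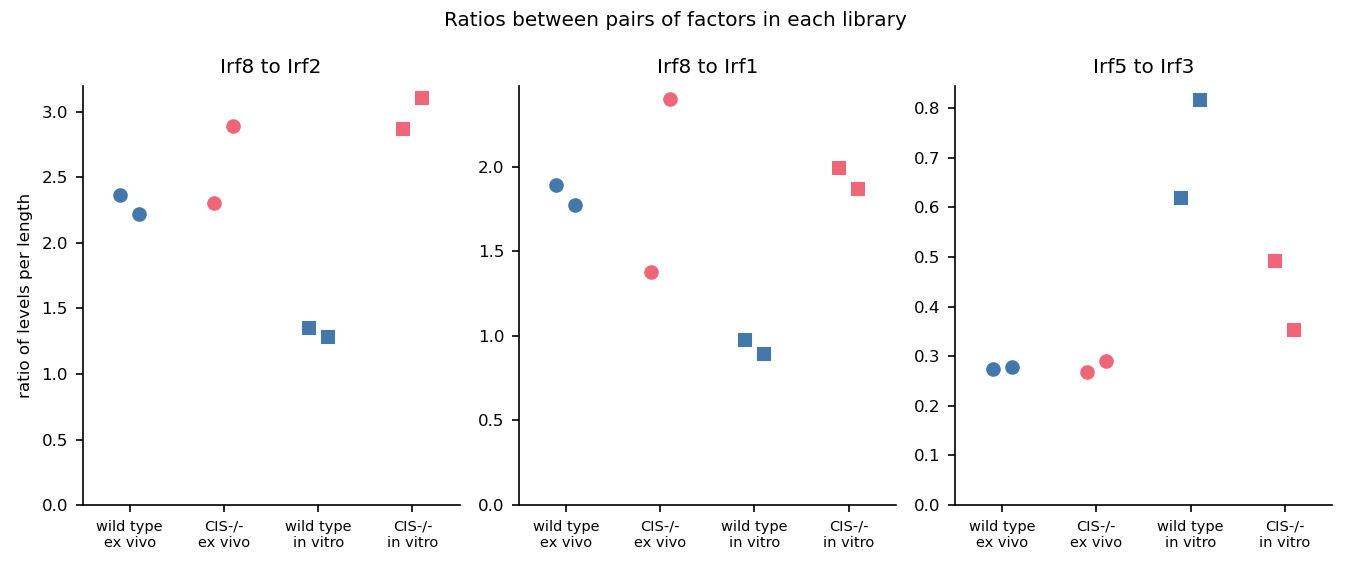
Ratios of levels per length between pairs of factors in each library, by group. For Irf8 to Irf2 and Irf8 to Irf1 the 2 wild-type in vitro libraries lie below the other 6.

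Other genes of these pathways were read from 7 lists with 69 tested genes. Ex vivo none of the 69 differed with genotype by edgeR's test (5 at an unadjusted p under 0.05, 0 by DESeq2 and 0 by limma-voom). In vitro 3 were higher and 22 lower in CIS-/- cells, against 10.96% higher and 14.6% lower among all tested genes. The counts with culture below stand against 32.1% higher and 31.6% lower among all tested genes in wild type and 34.8% and 37.5% in CIS-/- cells, and the medians against -0.00 and -0.05. For the interaction none passed (20 at an unadjusted p under 0.05, 6 by DESeq2, 0 by limma-voom). Gene length was not taken out of the list counts and medians. Its Spearman correlation with log2 fold change over all tested genes was -0.46 for genotype in vitro. For culture it was -0.23 in wild type and -0.31 in CIS-/- cells. With the length trend removed, the in vitro genotype calls over all genes were 1563 higher and 1362 lower. The part of length in the list results was not tested.

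Upstream of Irf1, 5 of the 8 interferon receptor and STAT genes were lower in CIS-/- cells in vitro and none was higher, with a list median of -0.54 on the log2 scale against 0 for all genes. Stat2, a transducer of type I interferon signals, was at 36.5 CPM in wild type and 17.5 in CIS-/- (log2 fold change -1.06, edgeR adjusted p = 0.00233). The kinase genes Jak1 (-0.58, adjusted p = 0.0168) and Tyk2 (-0.57, adjusted p = 0.0156) and the receptor genes Ifnar1 (-0.52, adjusted p = 0.0102) and Ifnar2 (-0.43, adjusted p = 0.0127) were the other four. With culture, 5 of the 8 fell in wild type and 7 in CIS-/- cells (medians -0.71 and -1.21). Jak1 fell by 1.81 in wild type (edgeR adjusted p = 1.12e-05), from 2430 to 693.7 CPM.

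Of 13 kinases, adaptors and other regulators upstream of IRF3 and IRF5, not all of them activating, 4 were lower in CIS-/- cells in vitro and none higher (median -0.15). This share of calls was near the 25.6% of all genes. Tnip1, a restraint on NF-kB signalling, was at 128.9 CPM in wild type and 62.3 in CIS-/- (-1.05, edgeR adjusted p = 0.00574), and the adaptor gene Traf3 was at -0.67 (adjusted p = 0.0245), the IRF3 kinase gene Ikbke at -0.56 (adjusted p = 0.0212) and Irak4 at -0.32 (adjusted p = 0.0465). With culture 2 rose and 5 fell in wild type (median -0.16), and 1 rose and 9 fell in CIS-/- cells (median -0.39). Ikbke (1.06) and Tnip1 (0.83) were the 2 that rose in wild type.

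Among 10 ETS and other partners of IRF4 and IRF8, 5 were lower in CIS-/- cells in vitro and none higher (median -0.53): Bcl6 at -0.75, Nfatc2 at -0.66, Tcf3 at -0.60, Ets1 at -0.57 and Etv6 at -0.50, with edgeR adjusted p from 0.00771 to 0.0414. With culture 9 of the 10 fell in wild type and all 10 in CIS-/- cells (medians -1.16 and -1.60), where 31.6% and 37.5% of all genes fell. Ets1, needed for NK cell development, fell by 1.33 in wild type (edgeR adjusted p = 3.22e-05), from 1834 to 729.1 CPM, and Ikzf1 by 1.72 (adjusted p = 4.17e-06). Spi1, which encodes PU.1, and its relative Spib were singled out after their values were seen: both were at 0 counts in all 4 in vitro libraries. Ex vivo Spi1 had 62 to 85 counts and Spib 27 to 143, the highest of Spib in the CIS-/- library with the most B cell marker counts. Against a floor of 3 counts over a group, Spi1 was at least 54.0-fold lower in vitro in wild type and at least 58.7-fold lower in CIS-/- cells, and Spib at least 44.3-fold and 61.2-fold lower.

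Of 8 tested AP-1 genes that pair with or resemble BATF, none differed with genotype in vitro by edgeR's test (1 at an unadjusted p under 0.05, 1 by DESeq2, 0 by limma-voom). With culture 4 fell in wild type, and in CIS-/- cells 2 rose and 3 fell. In wild type Fos fell by 4.14 (edgeR adjusted p = 0.00161) and Fosb fell by 4.13 (adjusted p = 0.00833). Of 5 tested IRF genes or IRF2 cofactors outside the 8, 3 were lower in CIS-/- cells in vitro: the IRF2-binding protein genes Irf2bp2 (-0.70, edgeR adjusted p = 0.0141) and Irf2bpl (-0.52, adjusted p = 0.0158), and Irf7 (-0.37, adjusted p = 0.0279). With culture Irf2bp2 rose by 1.12 in wild type and the other 4 fell, including Irf9, the DNA-binding subunit of an interferon-activated complex, by 0.86.

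Of 16 known IRF1 targets, 8 rose and 2 fell with culture in each genotype (medians 0.39 and 0.22 against -0.00 and -0.05 for all genes). These were not all the same genes. Gbp2 and Casp1 rose and Tap1 fell by edgeR's test in wild type alone, and B2m and Cxcl10 rose and Gbp5 fell in CIS-/- cells alone. The culture difference of Gbp2 was 0.76 in wild type and 0.0036 in CIS-/- cells. In wild type Socs1, the feedback inhibitor, rose from 21.5 to 63.9 CPM (log2 fold change 1.57, edgeR adjusted p = 2.64e-05). Ciita rose by 2.56, from 0.861 to 5.10 CPM (edgeR adjusted p = 0.000124). Il15, a cytokine NK cells depend on, fell by 2.18, from 7.23 to 1.59 CPM (edgeR adjusted p = 6.50e-05). With genotype in vitro 2 were higher in CIS-/- cells (the immunoproteasome genes Psmb8 by 0.52 and Psmb10 by 0.33). In the same comparison 3 were lower in CIS-/- cells (Gbp5 at -0.66, Gbp2 at -0.56 and Il15 at -0.85). Il15 was low in both, at 1.59 CPM in wild type and 0.880 in CIS-/- (edgeR adjusted p = 0.0460).

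Of 9 tested genes known as BATF and IRF4 targets in lymphocytes, 6 rose and 2 fell with culture in each genotype (medians 1.12 and 0.82, against -0.00 and -0.05 for all genes), where 63.7% and 72.4% of all genes were called. These too were not all the same genes. Maf went from 25.0 to 63.5 CPM with culture in wild type but from 24.6 to 22.7 in CIS-/- cells. Il2ra, the high-affinity subunit of the IL-2 receptor, rose from 2.61 to 67.0 CPM in wild type (log2 fold change 4.67, edgeR adjusted p = 2.27e-06), and Myc rose by 1.12 (adjusted p = 0.000583). Prdm1, which encodes BLIMP1, fell by 1.06 (adjusted p = 0.00117). With genotype in vitro Maf was at -1.48 (adjusted p = 0.00297), Rora at -1.08 (adjusted p = 0.00899) and Ctla4, a T cell inhibitory receptor at 1.13 CPM in wild type, at 2.47 (adjusted p = 0.0343). As given above, 5 of 7 T cell markers were higher in the same CIS-/- libraries, and their part in these values was not tested.

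The genes whose log2 CPM followed each member most closely over the 8 libraries were Mtg1 and Rtcb for Batf (Pearson r = 0.999 and 0.998), Ptgs1 for Irf1 (0.998), Sp1 and Rasal3 for Irf2 (0.999 and 0.998), Lyar and Cdk6 for Irf4 (both 0.997) and Zfand5 and Ahcyl2 for Irf8 (0.995 and 0.987). The closest to Irf3 were Rab5c (0.977) and G3bp2 (0.971), and to Irf5 Ssbp3 (0.982) and Nfkbie (0.977). The libraries fall into 2 culture states, so genes that differ between the states share most of this pattern. Between 1563 and 2129 genes exceeded r = 0.95 with Batf, Irf1, Irf2 or Irf4, but 169 did so with Irf8 and 28 each with Irf3 and Irf5. Batf3, under 1 CPM in every library, was left out.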

How the data were processed

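RNA of 8 libraries of DX5-enriched mouse NK cells was sequenced by the study. A deposited table of the series holds raw counts per gene for all 8 libraries, with gene length and symbol; the submitters' processing notes name Subread, featureCounts and limma, and GRCm38 and mm10. A deposited table of log2 RPKM values for 12372 genes, made by the authors, was used in 1 alternative. Versions and strand settings are not given in the sources used here.

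Counts were tested with edgeR 4.0.16 in R 4.3.3: filterByExpr (minimum count 10, minimum total 15), TMM factors, 1 mean per group over all 8 libraries (4 residual degrees of freedom) and the quasi-likelihood F test, with Benjamini-Hochberg adjustment over all 13184 tested genes and a threshold of 0.05. The scripts were tested on simulated data. Totals were 21485710 to 28065268 counts, so members but Batf3 had 71 or more counts in every library. The 20 alternatives included DESeq2 1.42.0, limma 3.58.1 and leaving out each library. Named list genes are, per list and comparison, up to 4 called genes of the largest change with a mean of at least 5 CPM, or all where 4 or fewer were called. Etv6, Ifnar2, Il15, Ciita and Prdm1 were named after their values were seen, as were single genes of the marker lists. So were the target genes named because their culture differences were unlike between the genotypes. Gene positions are from RefSeq, and strands and exon overlaps from GENCODE M21. The members and lists were chosen with earlier results of these data known. Some items withheld for evaluations are not reported here.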

Additional observations from a re-analysis of the deposited data

How the results depend on the processing

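Over the alternatives, 709 of 785 values of single members kept direction and side of the threshold, 32 lost a call, 24 gained one and 20 changed sign. None of the sign changes concerned a called difference. Ex vivo, Irf2 became -0.00080 with library totals and -0.0061 in log2 RPKM. With 1 library left out, the ex vivo difference ran from -0.17 to 0.19 for Irf2 (lowest without CIS-/- ex vivo replicate 2, and -0.0010 without wild-type in vitro replicate 1), from -0.16 to 0.52 for Irf8 and from -0.41 to 0.81 for Batf3 (both lowest without CIS-/- ex vivo replicate 2), from -0.0072 to 0.20 for Irf3 (lowest without CIS-/- ex vivo replicate 1) and from -0.12 to 0.036 for Irf4 (above 0 without wild-type ex vivo replicate 2, and 0.02 without CIS-/- ex vivo replicate 1). In vitro, Batf was -0.036 with the length trend removed and -0.037 with the replicate block as well, and Batf3 ran from -1.85 to 0.54 with 1 library left out (above 0 without CIS-/- in vitro replicate 2, and 0.40 without wild-type in vitro replicate 1). For the interaction, Irf3 was -0.030 with library totals and -0.017 to 0.19 with 1 library left out (below 0 without CIS-/- ex vivo replicate 2), Batf was -0.10 with the length trend removed, with or without the block, and Batf3 ran from -2.19 to 0.22 (0.22, 0.07 and 0.20 without CIS-/- ex vivo replicate 2, wild-type in vitro replicate 1 and CIS-/- in vitro replicate 2). The causes were not tested.

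Members called between genotypes in vitro numbered 4, but 1 in the log2 RPKM table and 0 to 4 with a library left out. For the interaction they numbered 0, but 1 by DESeq2 and 0 to 1 with a library left out. Replicate numbers are shared between groups, but no source says that they pair samples, and deviations of same-numbered libraries correlated at -0.232 to 0.146. With the replicate block 2 members were called in vitro, and 2527 of all genes against 3374.

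Over all genes, calls between genotypes ex vivo numbered 8, but 45 by DESeq2, 23 without the filter, 19 with the length trend removed (16 with the block), 5 fitted alone and 3 in log2 RPKM. In vitro they numbered 3374 and 1926 in log2 RPKM. For the interaction they numbered 18, but 592 by DESeq2, 137 with the length trend removed (42 with the block), 75 without the filter, 6 with the block and 0 in log2 RPKM; with library totals the split was 4 higher and 14 lower against 7 and 11. With the length trend removed the in vitro split was 1563 higher and 1362 lower. With library totals the median of all genes was -0.17 for culture in CIS-/- cells and -0.15 for the interaction. Leaving out 1 library gave 3 to 41 calls ex vivo, 500 to 4296 in vitro and 6 to 378 for the interaction. The interaction needs all 4 groups, so no fit of compared samples alone exists for it. Batf3 dropped out under the stricter filter. Depth limits Batf3.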
